A study of Mus musculus with 44 samples.

Results

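The amino acid and peptide transporters described here are the genes of 8 solute carrier families, Slc1, Slc3, Slc6, Slc7, Slc15, Slc36, Slc38 and Slc43. They were taken by symbol from a table of RNA-seq counts, and 69 of its 19733 gene rows matched, 3 of which (Slc36a1os, Slc6a19os and Slc7a6os) are named for the strand opposite a transporter and are not transporters themselves. The study asked how transcription factors of the intestine act in mouse stomach epithelium grown as organoids, which are cultured epithelial structures. In a first experiment there were 2 libraries of small intestine organoids and 9 of gastric organoids carrying lentiviral CDX2, HNF4A or GFP, a neutral product (3 lines each). In a second experiment, stomach antrum organoids that all overexpressed HNF4A were homozygous, heterozygous or wild type (3 libraries each) for a deletion that removes an enhancer downstream of Cdx2 at its 3' side, the wild-type ones thus carrying HNF4A overexpression too. All were of strain C57BL/6, with animal ages and the lentiviral promoter not given in the sources used here, and 1 label field of the 9 lentiviral libraries names small intestine while their titles and tissue tag name gastric organoids.

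Absorptive cells of the small intestine take up the products of protein digestion as free amino acids and as short peptides. The proton-coupled peptide carrier is encoded by Slc15a1, the main carrier of neutral amino acids by Slc6a19, the imino acid carrier by Slc6a20a, and the exchanger of cystine and dibasic amino acids by the heavy chain Slc3a1 with the light chain Slc7a9. The heavy chain Slc3a2 brings other Slc7 light chains to the basolateral or general cell surface, and Slc1, Slc36, Slc38 and Slc43 members carry glutamate, small neutral amino acids, glutamine and branched or aromatic amino acids.

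RefSeq promoters (250 bases before to 50 after a start site listed for a gene, GRCm38.p6, the mm10 assembly) were available for 50 of the 69 members. Those of the heterodimer pair Slc3a1 and Slc7a9 are shown since both genes rose in small intestine organoids. That of Slc7a11, the cystine and glutamate exchanger, is shown since its level fell from line 1 to line 3 within each construct. Capitals mark literal matches, on either strand, to CAAAGTCCA (an HNF4 motif), TTTATNG (a CDX motif) or TGATGCAA (a C/EBP and ATF composite element).
Slc3a1, chr17:85028097-85028396, plus strand: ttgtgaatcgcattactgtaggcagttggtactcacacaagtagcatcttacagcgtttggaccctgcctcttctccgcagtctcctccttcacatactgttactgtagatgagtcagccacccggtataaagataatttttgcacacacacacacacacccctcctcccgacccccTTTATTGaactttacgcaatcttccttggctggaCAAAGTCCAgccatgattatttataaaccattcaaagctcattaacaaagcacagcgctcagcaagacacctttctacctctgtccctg
Slc7a9, chr7:35448842-35449141, plus strand: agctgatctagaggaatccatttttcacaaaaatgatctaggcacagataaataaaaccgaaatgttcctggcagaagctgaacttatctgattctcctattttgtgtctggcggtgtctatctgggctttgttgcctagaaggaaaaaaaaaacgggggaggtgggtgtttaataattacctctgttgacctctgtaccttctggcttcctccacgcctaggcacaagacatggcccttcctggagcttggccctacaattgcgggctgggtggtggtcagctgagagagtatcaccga
Slc7a11, chr3:50443564-50443863, minus strand: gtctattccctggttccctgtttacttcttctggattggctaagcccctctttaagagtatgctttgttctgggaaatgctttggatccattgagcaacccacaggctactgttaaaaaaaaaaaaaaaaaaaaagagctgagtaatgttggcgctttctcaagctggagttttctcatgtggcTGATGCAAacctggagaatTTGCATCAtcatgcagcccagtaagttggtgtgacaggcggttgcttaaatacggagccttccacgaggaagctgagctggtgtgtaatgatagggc
The Slc3a1 promoter held 1 HNF4 match and 1 CDX match. Neither the Slc7a9 window shown nor that of its other listed start held any of the motifs. The Slc7a11 window held the composite element once on each strand. The windows shown for Slc7a9 and Slc7a11 lie inside the annotated spans of these genes (35448727 to 35466034, and 50364936 to 50499087). Of all 32851 promoters of this length, 0.475% held the HNF4 letters, 10.9% the CDX letters and 0.895% the composite element. Among members with a promoter, the HNF4 letters were found in 1 (Slc3a1), the CDX letters in 2 (Slc3a1 and Slc7a15) and the composite element in 3 (Slc1a4, Slc7a7 and Slc7a11). A match describes the letters in the window and not binding.

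Total counts ran from 6180498 to 11007809 per library in the first experiment and from 8173640 to 11465309 in the second. Levels are CPM, counts scaled to a common size of library with TMM factors, and 3 counts correspond to 0.256 to 0.473 CPM in a single library. They are not corrected for gene length, so levels are compared between libraries and not between genes. Cdx2 was at 200, 288 and 62.0 CPM in the CDX2 lines, 50.7, 29.1 and 22.6 CPM in the HNF4A lines and at most 7.44 CPM in the GFP lines, and transgene reads were not separable from endogenous reads. The summed level of 10 intestinal epithelial markers was 1193 to 1486 CPM in small intestine, 279 to 1195 in CDX2, 92.7 to 386 in HNF4A and 3.52 to 5.02 in GFP organoids, where Cdx1, Sis, Apoa4 and Isx were at 0. That of 10 gastric markers was 58.8 to 303 CPM in small intestine, 589 to 3260 in CDX2, 2499 to 9797 in HNF4A and 4372 to 14498 in GFP organoids. In bulk organoids fewer cells of a type and less RNA per cell cannot be told apart.

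Most transporters of the list were either general to all organoids or near absent from all. A filter on low counts left 40 members to be tested in the first experiment (of 12720 genes) and 39 in the second (of 12593), 36 of them in both, and 1 of the opposite-strand rows, Slc7a6os, was among them. The other 26 passed in neither and reached at most 20 counts in a library (Slc36a2), and Slc1a6, Slc6a18 and Slc7a12 had 0 counts in all 20 libraries. Some members passed through certain groups only, as Slc7a9 and Slc6a20a through small intestine and HNF4A organoids, and Slc43a3 through homozygous and heterozygous organoids. Slc1a2, Slc6a14 and Slc38a3 passed through gastric groups only. Slc6a7 passed through every group of the first experiment but GFP, and Slc7a3 through every one but CDX2.

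The peptide carrier Slc15a1 and the neutral amino acid carrier Slc6a19 of the absorptive enterocyte were barely detected, also in small intestine organoids. Slc15a1 (PEPT1) had 6 and 15 counts in the small intestine libraries, 13, 1 and 2 in the CDX2 lines, 6, 5 and 0 in the HNF4A lines and 1, 4 and 0 in the GFP lines. Its level was thus 0.559 and 1.65 CPM in small intestine, with overlap between small intestine and both CDX2 and HNF4A organoids, and it was not called against GFP organoids either (log2 fold change 2.50 ± 1.38, adjusted p = 0.197 by edgeR). Slc6a19 (B0AT1) had 0 counts in both small intestine libraries and at most 3 in any of the 20, so that differences in it were not detectable at this depth.

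Other members were detected in every group of the first experiment and were not called. The peptide and histidine carrier Slc15a4 lay between 25.6 and 35.3 CPM in small intestine, 22.1 and 30.3 CPM in CDX2, 21.8 and 32.6 CPM in HNF4A and 19.8 and 37.2 CPM in GFP organoids. The heavy chain Slc3a2 averaged 254 ± 48.5 CPM in small intestine (SD, n = 2) and 189 ± 55.3, 160 ± 50.4 and 144 ± 30.4 CPM in CDX2, HNF4A and GFP organoids (SD, n = 3 each). The taurine carrier Slc6a6 averaged 309 ± 14.8 CPM in small intestine and 230 ± 55.1 CPM in GFP organoids, and the glutamine and neutral carrier Slc1a5 averaged 271 ± 65.5 CPM in small intestine and 211 ± 42.1 CPM in GFP organoids. None of these 4 passed the main edgeR test in any comparison. Slc3a2 and Slc6a6 lay higher in small intestine than GFP organoids without overlap, as did 30.4% of all genes. With replicate number as a block over all 11 libraries, edgeR called Slc3a2 there (adjusted p = 0.0208), beside 39.0% of all genes.

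Small intestine against GFP organoids sets the intestinal pattern beside the stomach. Of 40 members tested, 10 were called by edgeR at a Benjamini-Hochberg adjusted p under 0.05, beside 27.1% of all genes tested, so the share of transporters called was close to that of the whole table. Of these, 5 rose (Slc38a1, Slc6a7, Slc7a9, Slc7a1 and Slc3a1; 14.2% of all genes rose) and 5 fell (Slc1a2, Slc36a1, Slc6a14, Slc15a3 and Slc36a4; 12.9% of all genes fell). DESeq2 called 16 members, beside 35.3% of all genes. The median log2 fold change of the tested members was 0.24 and that of all tested genes -0.01. By role, 2 of 10 tested Slc7 members and 1 of 2 heavy chains rose, both tested Slc36 members fell, and of 4 tested amino acid carriers of Slc6 1 rose and 1 fell. The summed level of 8 enteroendocrine markers was 21.1 to 63.3 CPM in small intestine and 3.80 to 5.63 CPM in GFP organoids, where Sct was at 0, and its part in the values of the transporters was not tested.

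The cystine and dibasic exchanger rose in both of its parts. The light chain Slc7a9 (chromosome 7, 35448727 to 35466034) was at 2.05 and 6.91 CPM in small intestine organoids, against 0.107, 0.106 and 0 CPM in GFP organoids, which is 85 against 2 counts. The groups did not overlap (30.4% of all genes lay higher in small intestine without overlap), and the ratio was 57.7 (95% counting interval 15.5 to 484; adjusted p = 0.0174 by edgeR). Slc7a9 passed the filter on low counts through small intestine and HNF4A organoids only. The heavy chain Slc3a1 was at 12.6 and 26.6 CPM in small intestine, against 5.55, 7.65 and 11.1 CPM in GFP organoids. Its log2 fold change was 1.27 ± 0.38 (SE; adjusted p = 0.0353 by edgeR), and without small intestine replicate 2, the higher library, it was 0.63 with an adjusted p of 0.312. Slc3a1 shares its locus on chromosome 17 with Prepl, and Slc7a9 overlaps a long noncoding RNA, with the strand setting of the counting unstated.

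The glutamine carrier Slc38a1 (SNAT1; chromosome 15, 96571418 to 96643438, mm10) had the smallest p of the members. It was at 455 and 411 CPM in small intestine organoids, against 78.5, 81.9 and 95.6 CPM in GFP organoids. The log2 fold change was 2.34 ± 0.31 (adjusted p = 0.00174 by edgeR). The cationic carrier Slc7a1 (CAT1), which takes up arginine and lysine, was at 287 and 221 CPM in small intestine, against 176, 85.5 and 122 CPM in GFP organoids (log2 fold change 0.99 ± 0.28, adjusted p = 0.0289). The proline carrier Slc6a7, known mainly from brain, was at 2.42 and 6.26 CPM in small intestine, against 0 counts in all 3 GFP libraries. Measured against 3 counts over the GFP group it was at least 37.6-fold higher (adjusted p = 0.00698), having passed the filter through the other groups only. The cationic carrier Slc7a3 (CAT3) stood at 6.71 and 5.82 CPM in small intestine, against 1.17, 0.425 and 2.33 CPM in GFP organoids, just outside the threshold by edgeR (adjusted p = 0.0505) and called by DESeq2 (0.0254) and limma-voom (0.0147).

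Among the 5 members that fell, the glutamate carrier Slc1a2 (EAAT2; chromosome 2, 102658239 to 102790784) was nearly absent from small intestine. It had 0.0931 and 0 CPM there (1 count in all), against 9.50, 42.8 and 33.6 CPM in GFP organoids, 564 times lower in small intestine (95% counting interval 101 to 22319; adjusted p = 0.00465). The broad carrier Slc6a14, which takes up neutral and cationic amino acids, had 0 and 0.219 CPM in small intestine, against 3.31, 3.19 and 15.7 CPM in GFP organoids, 69.6 times lower in small intestine (95% counting interval 19.0 to 579; adjusted p = 0.0305). Both genes were thus present in each gastric library of the GFP group and at or near 0 in the intestinal ones. Both passed the filter through gastric groups only. The proton-coupled carriers Slc36a1 (log2 fold change -1.64 ± 0.42, adjusted p = 0.0181) and Slc36a4 (-1.57 ± 0.51, adjusted p = 0.0435) fell as well. Slc36a1 was at 11.6 and 20.6 CPM in small intestine, against 34.1, 56.8 and 59.8 CPM in GFP organoids. The lysosomal peptide and histidine carrier Slc15a3 was at 0.931 and 1.32 CPM in small intestine, against 3.31, 4.04 and 4.29 CPM in GFP organoids (log2 fold change -1.78 ± 0.57, adjusted p = 0.0429).

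Slc38a1, Slc6a7 and Slc1a2 kept their call whichever of the 5 libraries was left out. The count of called members was 7 without GFP line 1, 6 without GFP line 2, 6 without GFP line 3, 5 without small intestine replicate 1 and 6 without small intestine replicate 2. Slc36a1 lost its call only without small intestine replicate 1 (adjusted p = 0.159), Slc7a9 without GFP line 2, GFP line 3 or small intestine replicate 2, and Slc7a1 without GFP line 2, GFP line 3 or small intestine replicate 1. Slc3a1 lost its call without GFP line 1, GFP line 2 or small intestine replicate 2, Slc6a14 without GFP line 3 or either small intestine library, Slc36a4 without any of these 5 but GFP line 2, and Slc15a3 without any of the 5. By limma-voom 10 members were called, beside 26.3% of all genes, with Slc1a1, Slc1a3 and Slc7a3 called in addition (adjusted p of 0.0263, 0.0307 and 0.0147) and Slc1a2, Slc6a14 and Slc36a4 not called (0.0806, 0.114 and 0.0647). With the compared groups alone Slc7a1, Slc3a1, Slc15a3 and Slc36a4 were not (0.0747, 0.0893, 0.0637 and 0.0973). Without the filter on low counts Slc15a3 and Slc36a4 missed the threshold (0.0644 and 0.0606).

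**Figure D1:**
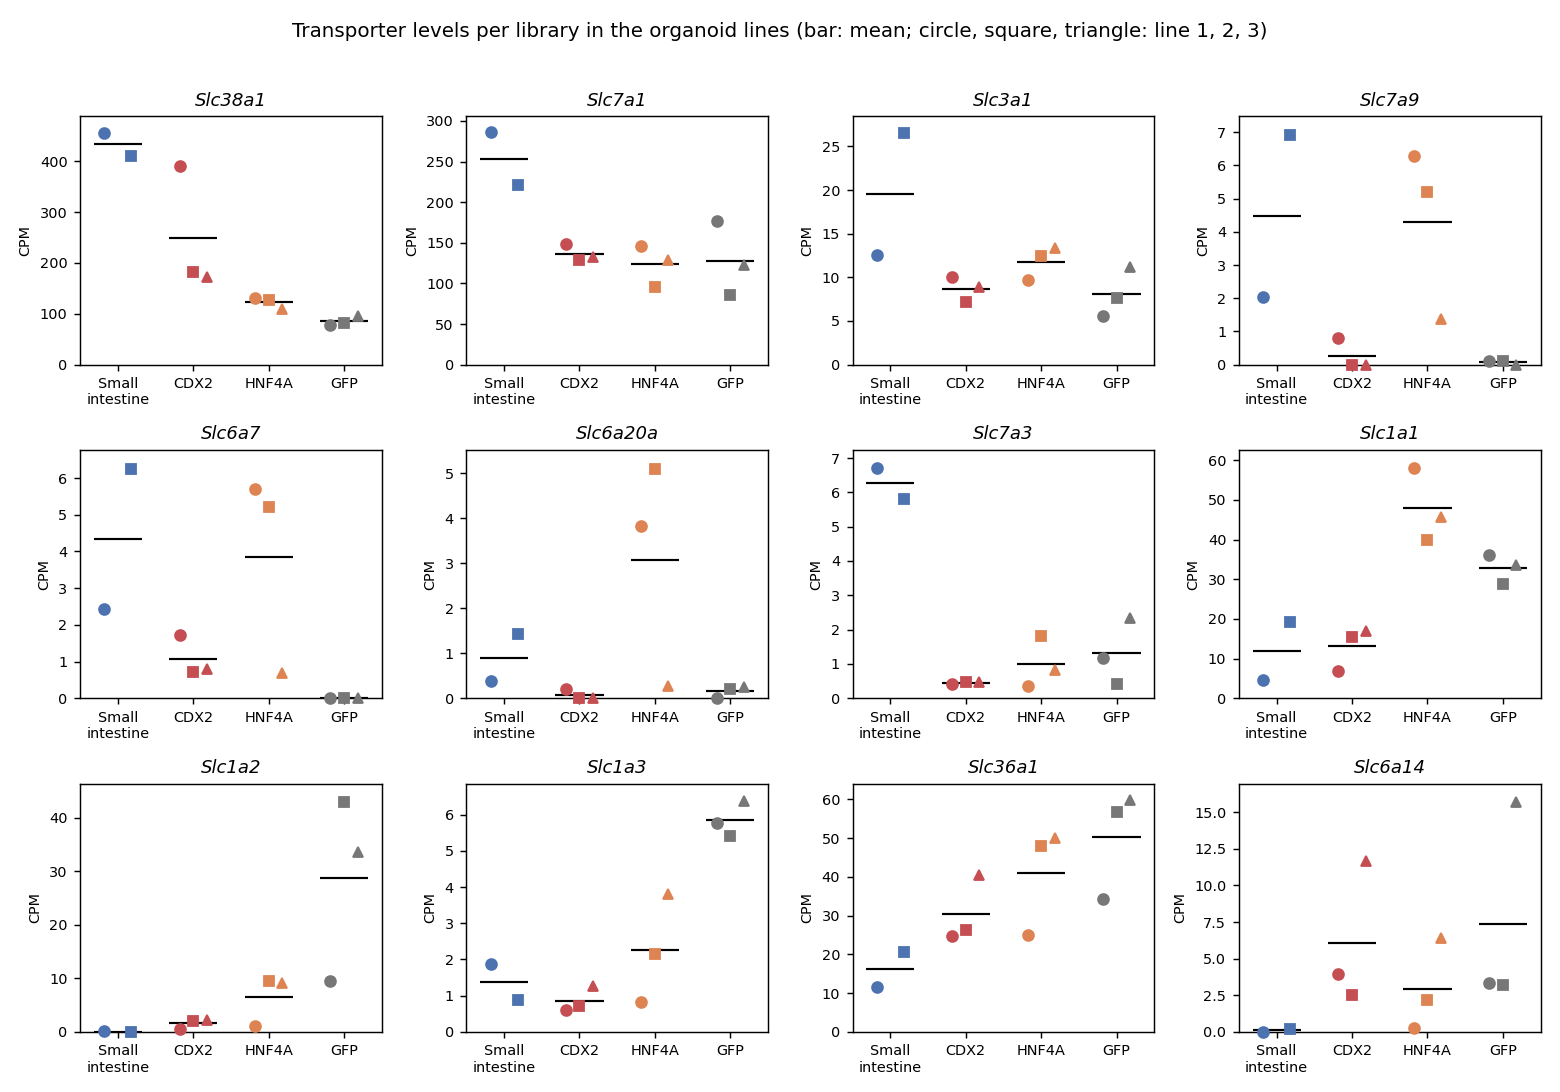
Levels of 12 transporters in the first experiment, in CPM (y axis, linear) for small intestine, CDX2, HNF4A and GFP organoids (x axis), with 1 point per library and the mean as a bar. Slc38a1 lies at 411 CPM or more in small intestine, 173 to 390 in CDX2, 110 to 130 in HNF4A and at most 95.6 in GFP organoids, while Slc1a2 lies at 9.50 CPM or more in GFP organoids.

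CDX2 against GFP organoids asks what an intestinal factor does to stomach cells. No member of 40 was called (0.409% of all genes were), while 8 had an unadjusted p under 0.05 beside 11.2% of all genes. DESeq2 called 4 (Slc38a1 and Slc6a7 higher, Slc1a2 and Slc1a3 lower), beside 3.88% of all genes, and limma-voom 0, beside 0.0314%. Libraries with the same line number deviated from their group means together, so line number was also fitted as a block on the 9 gastric libraries, an alternative chosen after seeing the data. With the block over all 11 libraries, 5 of 40 members were called (Slc38a1 and Slc7a11 higher, Slc1a2, Slc1a3 and Slc43a2 lower), beside 4.54% of all genes. With the block on the gastric libraries alone, 9 of 36 tested members were called, 4 higher and 5 lower, beside 9.67% of all genes. The log2 fold changes of this last fit are given after the unblocked ones.

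The glutamine carrier Slc38a1 was at 390, 182 and 173 CPM in CDX2 lines 1 to 3, against 78.5, 81.9 and 95.6 CPM in GFP lines 1 to 3. Each CDX2 line was above every GFP line, as for 8.23% of all genes, the line with most Slc38a1 being line 1. The log2 fold change was 1.54 ± 0.29 (adjusted p = 0.0601 by edgeR), and 1.46 ± 0.27 with the block (adjusted p = 0.0199). Leaving out 1 library gave log2 fold changes of 1.06 to 1.75 and adjusted p-values of 0.0284 to 0.257, with a call without CDX2 line 1 (0.0389) or CDX2 line 3 (0.0284) and none without CDX2 line 2 or any GFP line. Slc38a1 was thus high in small intestine and CDX2 organoids, each set against the same GFP libraries.

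Glutamate carriers stood lower in the CDX2 lines. Slc1a2 was at 0.503, 2.05 and 2.21 CPM in CDX2 lines, against 9.50, 42.8 and 33.6 CPM in GFP lines, with line 1 lowest in both. Its log2 fold change was -4.19 ± 0.91 (adjusted p = 0.0908 by edgeR) and -4.21 ± 0.30 with the block (adjusted p = 0.000477). Slc1a3 (EAAT1; chromosome 15, 8634124 to 8710807) was at 0.603, 0.724 and 1.26 CPM in CDX2 lines, against 5.76, 5.42 and 6.37 CPM in GFP lines. The log2 fold change of Slc1a3 was -2.76 ± 0.64 (adjusted p = 0.102) and -2.84 ± 0.49 with the block (adjusted p = 0.0121). Slc1a1 (EAAT3; chromosome 19, 28835135 to 28913960), the glutamate and cysteine carrier of intestine and kidney, was at 6.94, 15.3 and 16.9 CPM in CDX2 lines, against 36.2, 28.7 and 33.7 CPM in GFP lines. None of the 3 glutamate carriers overlapped between CDX2 and GFP lines (7.76% of all genes lay lower in CDX2 lines without overlap), and Slc1a1 was at -1.34 ± 0.47 (adjusted p = 0.30) and at -1.36 ± 0.32 with the block (adjusted p = 0.0413). Slc1a4 (ASCT1), a neutral amino acid exchanger of the same family, went the other way, at 316, 333 and 258 CPM in CDX2 lines, against 196, 251 and 108 CPM in GFP lines, and was called with the block only (0.79 ± 0.16, adjusted p = 0.0208).

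Of the other families, the proline carrier Slc6a7 was at 1.71, 0.724 and 0.789 CPM in CDX2 lines, against 0 counts in all GFP lines, which is at least 10.2-fold higher (adjusted p = 0.146, and 0.0438 with the block). It passed the filter through groups other than GFP. The uniporter Slc43a2 (LAT4), which lets large neutral amino acids leave the cell, was at 8.45, 9.17 and 15.8 CPM in CDX2 lines, against 21.0, 17.3 and 30.9 CPM in GFP lines, without overlap (blocked log2 fold change -1.07 ± 0.17, adjusted p = 0.00896). Slc36a1 was at -0.70 ± 0.17 with the block (adjusted p = 0.037). The exchanger Slc7a11, which brings in cystine for glutathione, was at 347, 246 and 157 CPM in CDX2 lines, against 190, 81.5 and 31.5 CPM in GFP lines. The groups overlapped, but each CDX2 line was above the GFP line of its own number (blocked log2 fold change 1.63 ± 0.33, adjusted p = 0.0266; unblocked 1.31 ± 0.73, adjusted p = 0.576). The summed level of 8 enteroendocrine markers was 51.0 to 158 CPM in CDX2 and 3.80 to 5.63 CPM in GFP organoids, and its part in these values was not tested.

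HNF4A against GFP organoids asks the same of another intestinal factor. No member of 40 was called (0.142% of all genes were), 5 had an unadjusted p under 0.05 beside 5.76% of all genes, DESeq2 called 2 (Slc6a7 and Slc7a9), beside 1.74% of all genes, and limma-voom 0, beside 0.0393%. With line number as a block over all 11 libraries 1 was called (Slc1a2, lower; 0.786% of all genes). With the block on the gastric libraries alone, 3 of 36 were called (Slc6a7 and Slc7a9 higher, Slc1a2 lower), beside 2.24% of all genes. Slc6a7 and Slc1a2 were called in the same directions in CDX2 lines by this fit, against the same GFP libraries. The summed level of the 8 enteroendocrine markers was 10.5, 14.9 and 69.1 CPM in HNF4A lines 1 to 3 and 3.80 to 5.63 CPM in GFP organoids, and its part in the values of the transporters was not tested.

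The light chain Slc7a9 was at 6.27, 5.21 and 1.36 CPM in HNF4A lines 1 to 3, against 0.107, 0.106 and 0 CPM in GFP lines, which is 110 against 2 counts. The ratio was 59.8 (95% counting interval 16.2 to 500; adjusted p = 0.216 by edgeR and 0.0271 with the block). Slc6a7 was at 5.69, 5.21 and 0.680 CPM in HNF4A lines, against 0 counts in the GFP lines, at least 36.2-fold higher (adjusted p = 0.102, and 0.0373 with the block). Slc7a9 and Slc6a7 passed the filter through groups other than GFP. Both carriers were lowest in HNF4A line 3, and of the unblocked edgeR fits with 1 library left out, the one without HNF4A line 3 called Slc6a7 (adjusted p = 0.0494, with up to 0.398 in the others). The imino acid carrier Slc6a20a, which takes up proline and betaine, was also lowest in line 3, at 3.83, 5.10 and 0.272 CPM in HNF4A lines, against 0, 0.213 and 0.245 CPM in GFP lines. It was not called (log2 fold change 4.23 ± 1.30, adjusted p = 0.429), and reads may be shared with the near-identical Slc6a20b. The heavy chain of the cystine exchanger, Slc3a1, was at 9.64, 12.5 and 13.3 CPM in HNF4A lines, against 5.55, 7.65 and 11.1 CPM in GFP lines, with overlap (0.54 ± 0.35, adjusted p = 1).

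Slc1a2 was the member on the lower side, at 1.05, 9.51 and 9.12 CPM in HNF4A lines, against 9.50, 42.8 and 33.6 CPM in GFP lines. Each HNF4A line was below the GFP line of its number, while the groups overlapped by the level of line 1 of GFP (log2 fold change -2.13 ± 0.81, adjusted p = 0.704; with the block -2.28 ± 0.26, adjusted p = 0.00703). Slc1a3 was at 0.813, 2.15 and 3.81 CPM in HNF4A lines, against 5.76, 5.42 and 6.37 CPM in GFP lines, without overlap and without a call (-1.37 ± 0.59, adjusted p = 0.825). Without overlap 4.93% of all genes lay lower in HNF4A lines.

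**Figure D2:**
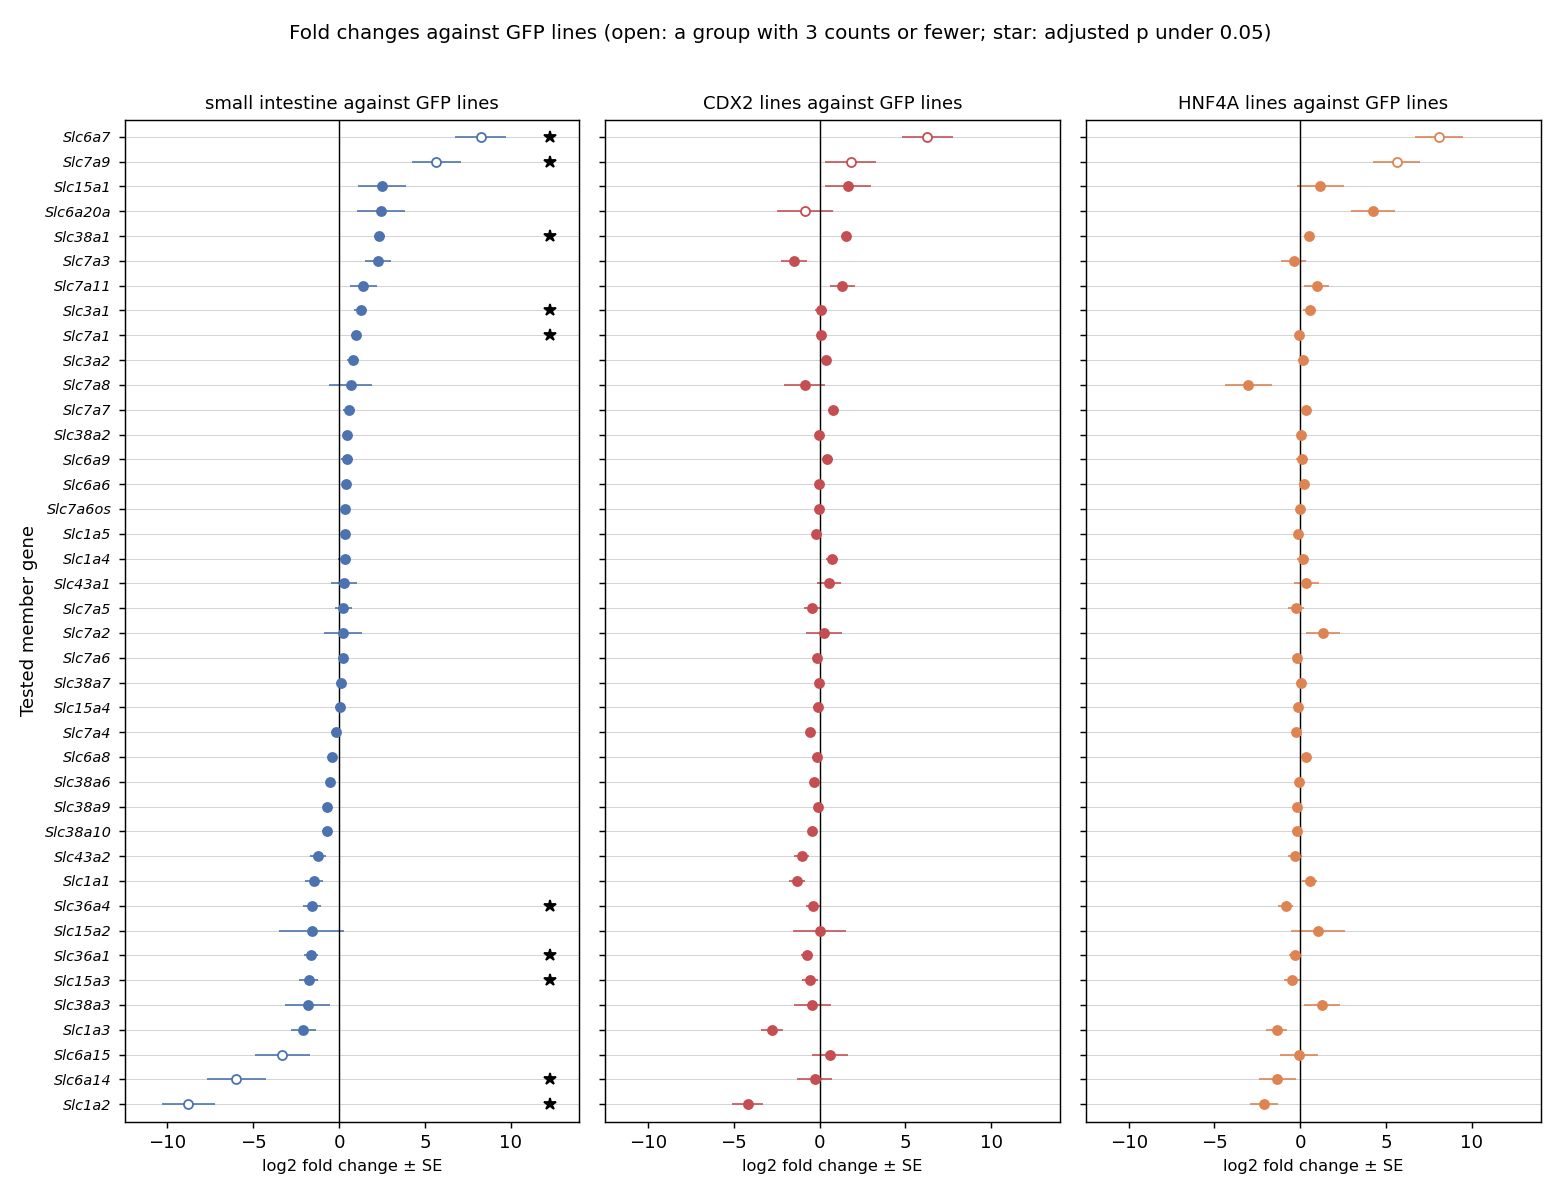
Log2 fold changes with their standard error (x axis) of the 40 tested members (y axis) in small intestine, CDX2 and HNF4A organoids, each against the same 3 GFP libraries. Open points mark comparisons in which a group had 3 counts or fewer, stars mark calls, and the 10 stars all lie in the small intestine panel.

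CDX2 against HNF4A organoids sets both kinds of line side by side and does not separate the factors. Hnf4a was at 441, 197 and 186 CPM in CDX2 lines and 502, 399 and 289 CPM in HNF4A lines. In GFP lines it was at 158, 132 and 95.7 CPM. Cdx2 also stood higher in HNF4A than GFP lines, as given above. No member was called (0.0236% of all genes were), 5 had an unadjusted p under 0.05 beside 5.18% of all genes, DESeq2 called 1 (Slc1a1), beside 1.09% of all genes, and limma-voom 0, beside 0.0157%. With the block over all 11 libraries 0 were called (0.22% of all genes). With the block on the gastric libraries alone 2 of 36 were called, Slc1a1 and Slc1a2, both lower in CDX2 lines, beside 1.38% of all genes. Slc1a1 was at 6.94, 15.3 and 16.9 CPM in CDX2 lines, against 58.1, 40.0 and 45.6 CPM in HNF4A lines, without overlap (log2 fold change -1.88 ± 0.48, adjusted p = 0.363; with the block -1.90 ± 0.32, adjusted p = 0.0408). Without overlap 4.21% of all genes lay lower in CDX2 lines and 4.1% lay higher. Slc1a2 was at -2.07 ± 0.87 (adjusted p = 0.908), and at -1.93 ± 0.31 with the block (adjusted p = 0.0324). Slc6a20a had 2 counts over the CDX2 lines, against 80 counts over the HNF4A lines, 39.7 times lower in CDX2 lines (95% counting interval 10.6 to 333; adjusted p = 0.455). Slc7a9 was at 0.804, 0 and 0 CPM in CDX2 lines, against 6.27, 5.21 and 1.36 CPM in HNF4A lines, again without overlap and without a call (-3.80 ± 1.18, adjusted p = 0.564), the counts in CDX2 lines all being in line 1. Slc38a1 had the opposite order, with CDX2 lines at 173 CPM or more and HNF4A lines at 130 CPM or less (1.02 ± 0.29, adjusted p = 0.455; 0.54 without CDX2 line 1).

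In small intestine against CDX2 organoids the only member of 40 called by edgeR was Slc7a3, beside 11.3% of all genes. An unadjusted p under 0.05 was found for 13 members, beside 30.1% of all genes. Without overlap 12 members lay higher in small intestine, beside 24.2% of all genes, and 8 lay lower, beside 23.6%. The arginine and lysine carrier Slc7a3 was at 6.71 and 5.82 CPM in small intestine, against 0.402, 0.483 and 0.473 CPM in CDX2 lines (log2 fold change 3.75 ± 0.82, adjusted p = 0.0234). It passed the filter through every group of the first experiment but CDX2. The call was lost without CDX2 line 1 (adjusted p = 0.0573), without CDX2 line 2 (0.0503), without CDX2 line 3 (0.0694) and without small intestine replicate 1 (0.151), with log2 fold changes of 3.65 to 3.85 over the 5 fits that each left out 1 library. In these fits 2 members were called without CDX2 line 1, 0 without CDX2 line 2, CDX2 line 3 or small intestine replicate 1, and 1 without small intestine replicate 2. It was also lost with the compared groups alone (0.0535). DESeq2 called 7 members here (Slc7a3, Slc7a9, Slc3a1, Slc7a1 and Slc38a2 higher, Slc1a2 and Slc6a14 lower), beside 21.0% of all genes. Slc7a3 shares its locus on chromosome X with Snx12.

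Small intestine against HNF4A organoids gave 4 called members of 40, beside 12.5% of all genes, and 7 by DESeq2, beside 21.9%. Slc38a1 and Slc7a1 rose and the glutamate carriers Slc1a1 and Slc1a2 fell. Slc38a1 was at 455 and 411 CPM in small intestine, against 130, 127 and 110 CPM in HNF4A lines (log2 fold change 1.82 ± 0.31, adjusted p = 0.0101). Slc7a1 was at 287 and 221 CPM in small intestine, against 146, 96.0 and 129 CPM in HNF4A lines (log2 fold change 1.04 ± 0.28, adjusted p = 0.0422). Slc1a1 was at 4.66 and 19.3 CPM in small intestine, against 58.1, 40.0 and 45.6 CPM in HNF4A lines, which is -2.00 ± 0.55 (adjusted p = 0.0438). Its log2 fold change was -1.31 without small intestine replicate 1 (adjusted p = 0.248) and -3.36 without small intestine replicate 2 (adjusted p = 0.0102). Slc1a2 had 1 count over both small intestine libraries, against 160 counts over the HNF4A lines, 128 times lower in small intestine (95% counting interval 22.7 to 5092; adjusted p = 0.0254). It passed the filter through gastric groups only. The count of calls was 3 without HNF4A line 1, 1 without HNF4A line 2, 1 without HNF4A line 3, 0 without small intestine replicate 1 and 2 without small intestine replicate 2. Slc38a1 kept its call in all of these fits but the one without small intestine replicate 1 (adjusted p = 0.0746), whereas Slc7a1 lost it in all 5. Slc1a1 was not called without any 1 HNF4A line or small intestine replicate 1, nor Slc1a2 without HNF4A line 2, HNF4A line 3 or either small intestine library. With the compared groups alone Slc38a1 was the member called, and by limma-voom Slc1a2 was not called (adjusted p = 0.256) while Slc7a3 was (0.0265).

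Genes outside the families that bear on amino acid uptake were given by lists. Of 9 tested brush border partners and peptidases, Enpep and Mep1b rose and Anpep and Slc9a3 fell in small intestine against GFP organoids, beside the 27.1% of all genes called there. In CDX2 and HNF4A lines against GFP 0 of the 9 were called, beside 0.409% and 0.142% of all genes. The meprin subunit Mep1b averaged 27.7 ± 12.5 CPM in small intestine (SD, n = 2) and 0.142 ± 0.162 CPM in GFP organoids (SD, n = 3), and the sodium and proton exchanger Slc9a3 averaged 3.57 ± 1.62 CPM in small intestine and 333 ± 37.8 CPM in GFP organoids. A list of 18 genes held Atf4, the factor that answers amino acid shortage, and genes known as its targets. Of these 18, 8 rose and 0 fell in small intestine against GFP organoids, beside 14.2% of all genes that rose and 12.9% that fell. Those that rose were Trib3, Psat1, Phgdh, Shmt2, Mthfd2, Gars, Sars and Nars. Atf4 itself was not called (log2 fold change 0.75 ± 0.54, adjusted p = 0.319 by edgeR), nor were Chac1, Ddit3, Ddit4, Sesn2 and Cebpb. The list was chosen with earlier results of these data known, so its count is not independent of them. The serine synthesis enzyme Phgdh averaged 306 ± 39.0 CPM in small intestine and 92.8 ± 29.6 CPM in GFP organoids (log2 fold change 1.72 ± 0.27, adjusted p = 0.00311 by edgeR), whereas asparagine synthetase, Asns, averaged 304 ± 38.5 CPM in small intestine and 330 ± 75.4 CPM in GFP organoids and was not called. Of the same 18 genes, 7 rose against CDX2 organoids, beside 5.63% of all genes, and 7 against HNF4A organoids, beside 5.83%. Between gastric groups 0 were called, where 0.0236% to 0.409% of all genes were. The list held no transporter of the families. Among the transporters, Slc7a1 was called higher in small intestine against GFP organoids, as given above. Slc7a11 and Slc38a2 were not called by edgeR there (1.41 ± 0.79, adjusted p = 0.205, and 0.47 ± 0.18, adjusted p = 0.0726), and DESeq2 called Slc38a2 (0.0480).

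A few transporters were apart by the number of the line in all constructs, about as often as genes of the whole table. The peptide carrier Slc15a2 (PEPT2) was at 0.101, 0 and 0.213 CPM in line 1 of CDX2, HNF4A and GFP. In line 2 of the same constructs it was at 1.57, 5.78 and 3.51 CPM. In line 3 it was at 9.31, 16.3 and 7.11 CPM, so that all libraries of 1 line number were apart from those of the others. Such separation of all 3 line numbers was seen in 3 of 40 members (Slc15a2, Slc38a7 and the opposite-strand row Slc7a6os) and in 5.26% of all tested genes. Lines 1 and 3 were apart in 15 of 40 members, beside 39.7% of all genes. Slc7a11 ran in the opposite direction, at 347, 367 and 190 CPM in line 1 of CDX2, HNF4A and GFP and at 157, 46.8 and 31.5 CPM in line 3. In line 2 it was at 246, 180 and 81.5 CPM, which overlapped with both line 1 and line 3. These members were chosen after their values were seen, and the labels do not say what lines of the same number share.

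**Figure D3:**
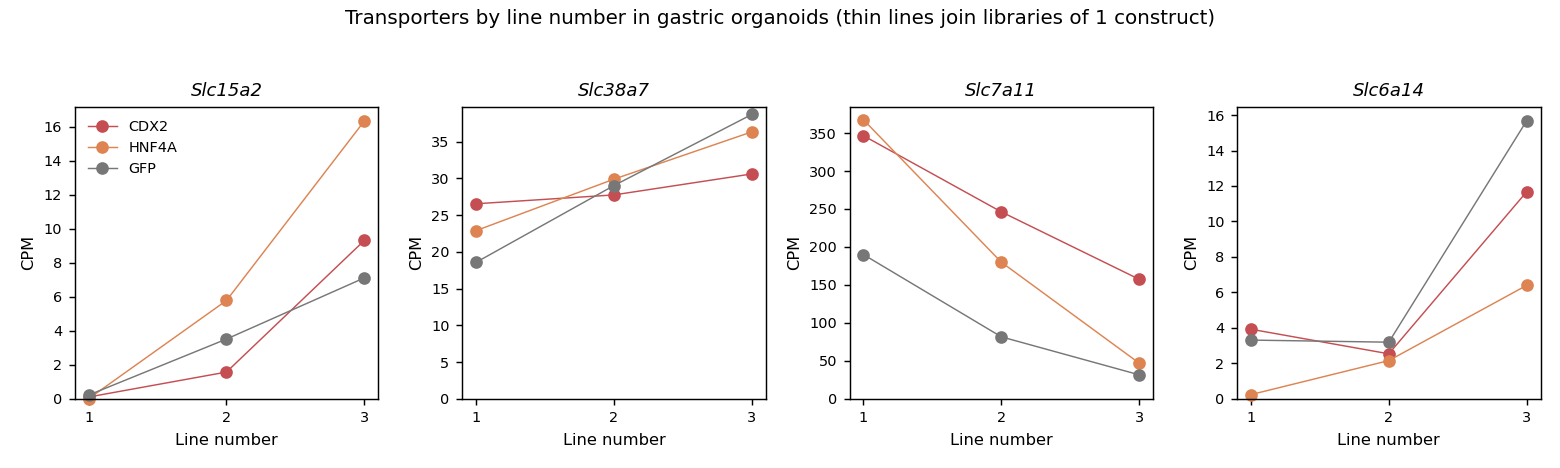
Levels of 4 transporters in CPM (y axis, linear) by line number (x axis) in CDX2, HNF4A and GFP gastric organoids, with 1 point per library. Slc15a2 lies at 0.213 CPM or less in every line 1 and at 7.11 CPM or more in every line 3, while Slc7a11 is highest in line 1 of each construct.

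In the enhancer experiment no transporter was called, and 0 of 12593 genes were (0.0% for each comparison). Of 39 tested members, 4 had an unadjusted p under 0.05 in homozygous against wild-type organoids (4.59% of all genes) and 4 in heterozygous against wild-type organoids (8.93%). DESeq2 called 1 (Slc38a4, beside 1.43% of all genes) in homozygous and 3 (Slc38a4, Slc43a3 and Slc15a3, beside 2.6%) in heterozygous organoids, and limma-voom 0 in both (0.0% of all genes). Cdx2 itself was at 0.199, 1.36 and 0.585 CPM in homozygous, 18.4, 5.55 and 9.31 CPM in heterozygous and 16.7, 26.8 and 58.5 CPM in wild-type organoids. Hnf4a was at 356, 374 and 336 CPM in homozygous and 320, 443 and 513 CPM in wild-type organoids.

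The members with the highest fold changes were highest in libraries rich in fibroblast and endothelial transcripts. The neutral amino acid carrier Slc38a4 (SNAT4; chromosome 15, 96994816 to 97055956) was at 9.06, 13.5 and 226 CPM in homozygous and 19.6, 121 and 213 CPM in heterozygous organoids, against 1.17, 0.361 and 1.53 CPM in wild-type organoids. The summed level of 12 fibroblast markers was 49.1, 144 and 1468 CPM in the same homozygous libraries, 132, 1224 and 1789 CPM in the heterozygous and 6.84, 8.42 and 4.33 CPM in the wild-type ones, with Lum at 0 in all and Thy1 and Postn at 0 in homozygous and wild-type libraries. The summed level of 6 endothelial markers was 4.38, 4.68 and 35.2 CPM in homozygous, 5.66 to 48.5 CPM in heterozygous and 2.79, 1.80 and 1.27 CPM in wild-type libraries, with Cdh5 at 0 in the wild-type ones. The same 3 libraries were highest in Slc38a4 and in both sums. The log2 fold change of Slc38a4 was 6.32 ± 1.60 in homozygous (adjusted p = 0.877 by edgeR) and 6.83 ± 1.62 in heterozygous organoids (adjusted p = 0.457). Without heterozygous replicates 2 and 3 and homozygous replicate 3, the libraries with most fibroblast transcripts, it was 3.46 ± 0.51 in homozygous organoids (adjusted p = 0.723). In heterozygous organoids, where 1 library was left, it was 4.24. Both values were smaller on the log2 scale and above 0. The deletion libraries left still had fibroblast sums of 49.1, 144 and 132 CPM, against at most 8.42 CPM in wild-type ones. This fit thus does not separate genotype from fibroblast RNA. The part of fibroblast or endothelial RNA in these values was not tested.

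Slc43a3, which is known to carry purine nucleobases rather than amino acids, was at 1.19, 3.41 and 37.6 CPM in homozygous and 3.14, 18.7 and 46.0 CPM in heterozygous organoids, against 0.899, 0.120 and 0 CPM in wild-type organoids. The serotonin carrier Slc6a4 was at 0.995, 0.390 and 8.55 CPM in homozygous and 0.210, 9.30 and 16.3 CPM in heterozygous organoids, against 0.180, 1.56 and 1.40 CPM in wild-type organoids. Slc15a3 was at 2.69, 2.63 and 13.8 CPM in homozygous and 3.35, 8.88 and 12.6 CPM in heterozygous organoids, against 1.62, 0.722 and 1.40 CPM in wild-type organoids. All 3 were highest in the libraries richest in fibroblast and endothelial markers, and the part of these cells was not tested. Without those 3 libraries 1 heterozygous library was left. The log2 fold change of Slc43a3 was then 2.58 in homozygous and 3.03 in heterozygous organoids (5.15 and 5.84 with them). That of Slc15a3 was 1.08 in homozygous and 1.41 in heterozygous organoids (2.33 and 2.71 with them). Slc6a4 differed from these, at 0.995 and 0.390 CPM in the homozygous and 0.210 CPM in the heterozygous libraries left. These levels lay within the wild-type range of 0.180 to 1.56 CPM. In the first experiment, where the fibroblast sum was at most 23.0 CPM, Slc38a4 was at most 1.09 CPM, Slc43a3 at most 1.12 CPM and Slc6a4 at most 2.21 CPM. Slc15a3 was at 0.931 to 4.29 CPM there, so its highest levels in the first experiment were above those of homozygous replicates 1 and 2 and heterozygous replicate 1.

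The glutamine carrier Slc38a1 stood lower in deletion organoids and was not called. It was at 99.4, 83.2 and 71.8 CPM in homozygous and 105, 84.1 and 77.2 CPM in heterozygous organoids, against 105, 154 and 154 CPM in wild-type organoids. The log2 fold change was -0.69 ± 0.20 in homozygous (adjusted p = 0.877 by edgeR) and -0.63 ± 0.20 in heterozygous organoids (adjusted p = 0.457). Homozygous libraries lay below wild-type ones without overlap, as they did in 4.17% of all genes. Heterozygous ones overlapped with wild-type replicate 1. Without the 3 libraries with most fibroblast transcripts the value was -0.58 ± 0.21 in homozygous organoids (adjusted p = 0.999). It was -0.38 in heterozygous organoids, where 1 library was left. Slc7a9, Slc6a20a and Slc6a7, which stood higher in HNF4A than GFP lines, had counts in every library here. Slc6a7 reached levels near the floor in each genotype. It was at 0.398, 0.390 and 1.05 CPM in homozygous organoids (4, 4 and 9 counts). It was at 2.62, 0.427 and 1.02 CPM in heterozygous and 0.360, 1.32 and 3.31 CPM in wild-type organoids. Slc7a9 was at 1.49, 4.38 and 1.17 CPM in homozygous, 4.19, 1.02 and 1.59 CPM in heterozygous and 2.61, 3.85 and 9.93 CPM in wild-type organoids. Slc6a20a was at 2.79, 2.63 and 1.87 CPM in homozygous, 3.98, 0.597 and 2.27 CPM in heterozygous and 1.89, 5.66 and 9.67 CPM in wild-type organoids. Homozygous against wild-type, Slc7a9 was at -1.20 ± 0.76 and Slc6a20a at -1.23 ± 0.73 (adjusted p = 0.999 for both), with overlap.

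**Figure D4:**
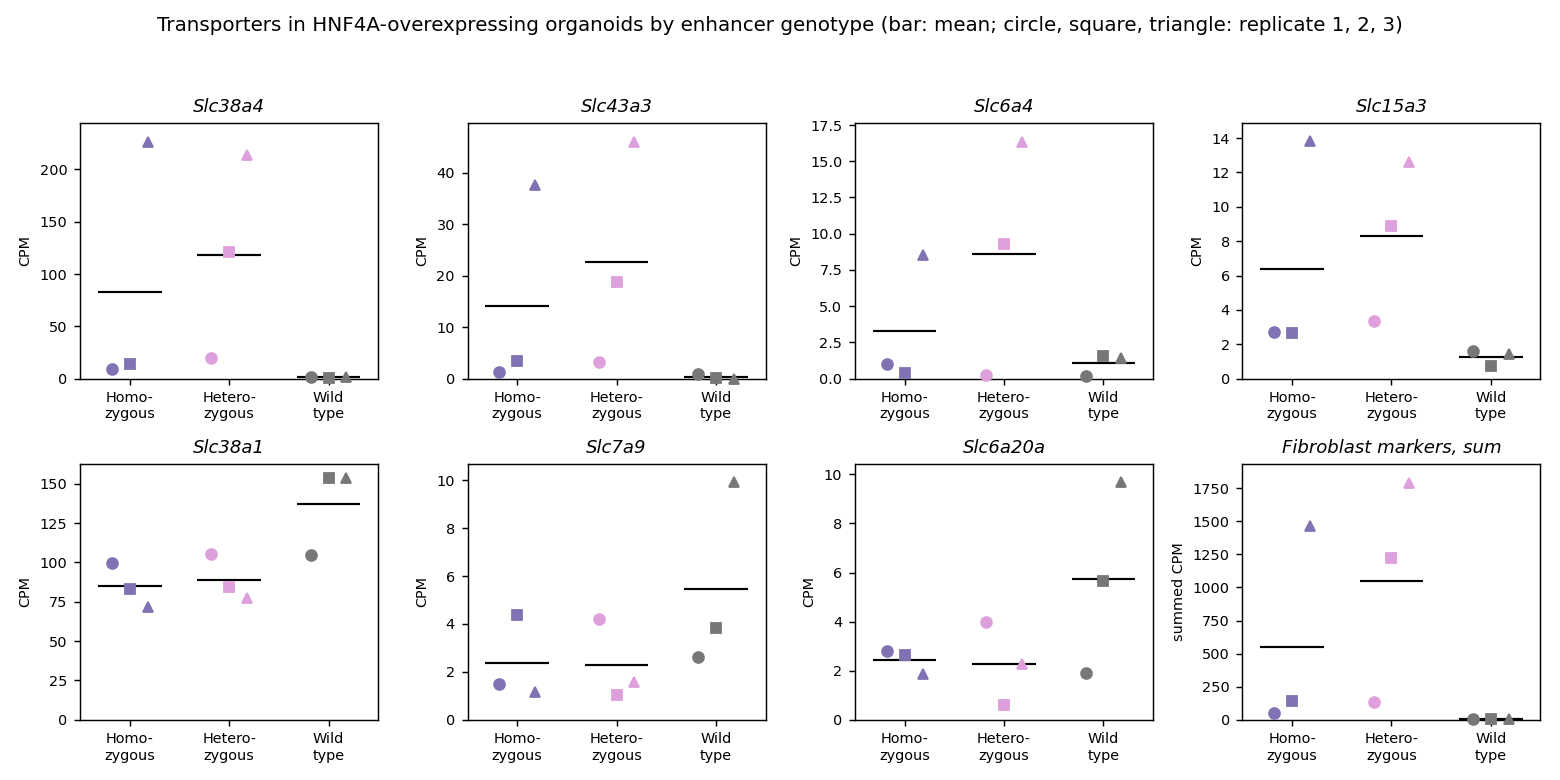
Levels of 7 transporters in CPM and the summed CPM of 12 fibroblast markers (y axes, linear) in homozygous, heterozygous and wild-type HNF4A-overexpressing stomach organoids (x axis), with 1 point per library and the mean as a bar. Slc38a4, Slc43a3, Slc6a4 and Slc15a3 are highest in the libraries where the fibroblast sum is at 1224 CPM or more, and Slc38a1 is at most 105 CPM in deletion organoids.

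The glutamate carriers Slc1a2 and Slc1a3 varied within the wild-type group. Slc1a2 was at 20.9, 26.3 and 9.25 CPM in homozygous and 7.86, 16.5 and 15.4 CPM in heterozygous organoids, against 18.4, 22.7 and 1.40 CPM in wild-type organoids. Slc1a3 was at 15.7, 10.8 and 3.04 CPM in homozygous and 3.67, 5.21 and 3.52 CPM in heterozygous organoids, against 9.62, 24.2 and 1.65 CPM in wild-type organoids. Both were lowest in wild-type replicate 3, the library with the most Cdx2 of the 9, an observation on 1 library without a test. The third glutamate carrier, Slc1a1, did not share this, at 69.0, 45.7 and 32.9 CPM in homozygous and 52.3, 25.3 and 27.5 CPM in heterozygous organoids, against 39.4, 67.1 and 57.9 CPM in wild-type organoids. Homozygous against heterozygous organoids gave no call and no member with an unadjusted p under 0.05 (0.262% of all genes), and DESeq2 (0.00794% of all genes), limma-voom and the fit with replicate number as a block called 0 too. The members with the smallest p were Slc1a3 (log2 fold change 1.25 ± 0.84), Slc1a1 (0.49 ± 0.36), Slc1a5 (0.22 ± 0.16) and Slc6a14 (0.82 ± 0.62; 0.21 without homozygous replicate 1), all with an adjusted p of 1 and with overlapping groups.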

How the data were processed

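Poly-A RNA-seq counts of 20 mouse organoid libraries were used, and 24 other samples of the series (ATAC-seq, CUT&RUN and ChIP-seq) were not analysed here. The deposited values are raw counts of reads per gene symbol, made by the authors with STAR. Per the submitters' processing notes, the build is mm10, with a human build, Bowtie2 and Cell Ranger named without a role for the first experiment. Not given in the sources used here: the counter, its strand setting, the gene models. Positions are from RefSeq for GRCm38.p6, which matched all 69 members, 29 of them overlapping another annotated gene.

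From these counts the experiments were fitted separately with edgeR 4.0.16 in R 4.3.3 (TMM, filterByExpr at 10 counts minimum and 15 in total, robust quasi-likelihood F test, two-sided). A gene is called at a Benjamini-Hochberg adjusted p, taken over all genes, under 0.05, and an adjusted p without a tool is edgeR's. The SE was obtained from the log2 fold change and the F statistic (log2 fold change over root F). The fit was also run on counts simulated with 1 setting of the spread for every gene and no line effect. That run cannot show how it behaves at the spread between these libraries. DESeq2 1.42.0, limma 3.58.1 (voom), RLE factors, no filter, a replicate block, the compared groups alone and each library left out were alternatives. The block on gastric libraries alone and the fit without fibroblast-rich libraries were added after seeing the data. Where a group had 0 counts the fold is a bound against 3 counts over the group, and with 1 to 3 counts a ratio with a 95% counting interval, which covers counting error only, since reads carry no molecular identifiers.

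Deviations from group means correlated across genes between 0.336 and 0.751 in the 9 same-numbered pairs of gastric libraries, so the numbers pair them; pairs with small intestine ran from -0.088 to 0.118. Pairs with wild type in the enhancer experiment ran from -0.29 to 0.244, and heterozygous and homozygous pairs from 0.188 to 0.53. Replicates differed by 21.7 to 84.1 chi-square per degree of freedom, above sampling noise. The labels do not say that replicates came from separate animals, so p-values measure the spread between libraries, which may be technical. Members and gene lists were chosen with earlier results of these data known. Genes named are the members called in any comparison (or, with none called, the 4 with the smallest unadjusted p) and carriers from a list of 21 epithelial ones. Of that list, values of Slc6a8, Slc6a20b, Slc7a5, Slc7a7, Slc7a8 and Slc38a5 are not given, and the main fit called none of these. With the block over all 11 libraries Slc7a8 was called higher in small intestine against HNF4A organoids (adjusted p = 0.0453). Other genes named were chosen after their values were seen. A gene of the brush border partner list is not reported here.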

Additional observations from a re-analysis of the deposited data

How the results depend on the processing

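For each comparison the called transporters, or the 4 with the smallest p where none was called, were followed through the alternatives. None of their log2 fold changes changed direction, and of these values 391 kept their side of the threshold, 26 passed it newly and 54 no longer passed it. RLE factors and limma-voom changed no count of calls, though limma-voom called partly other members, and the fit without a filter gave 8 calls in small intestine against GFP. In the order CDX2 against GFP, HNF4A against GFP and CDX2 against HNF4A organoids, DESeq2 called 4, 2 and 1 members, against 0 each by edgeR. DESeq2 called 16, 7 and 7 in small intestine against GFP, CDX2 and HNF4A organoids, and 1 and 3 in homozygous and heterozygous against wild-type organoids. The replicate block over all 11 libraries gave 5, 1, 19, 8 and 8 calls in CDX2 against GFP, HNF4A against GFP and small intestine against GFP, CDX2 and HNF4A. Beside these blocked counts stand 4.54%, 0.786%, 39.0%, 23.1% and 24.1% of all genes, and the numbers did not pair the small intestine libraries. Slc38a2, Slc7a11 and Slc7a3 were among the 19 (adjusted p of 0.0136, 0.0359 and 0.0354). The block on the gastric libraries alone gave 9, 3 and 2. The block changed no other count. The fit of only the compared groups gave 7 in small intestine against GFP, 0 in small intestine against CDX2 and 1 against HNF4A. Leaving out 1 library gave 0 to 1 calls in CDX2 against GFP, 0 to 1 in HNF4A against GFP, 5 to 7 in small intestine against GFP, 0 to 2 against CDX2 and 0 to 3 against HNF4A. Depth limits members under 3 counts per library (0.256 to 0.473 CPM), Slc6a19 among them.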
